A study of Mus musculus with 4 samples.

Results

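A set of 9 complement genes was followed through immune cells of the aged mouse cortex. The genes were chosen by name: the C1q chains C1qa, C1qb and C1qc, the components C3 and C4b, the positive regulator Cfp (properdin), the anaphylatoxin receptors C3ar1 and C5ar1, and Itgam, the alpha chain of complement receptor 3. All 9 members were found among the 16798 genes counted. The tested mice, called ADAM, were APP/PS1 Axl-/- Mertk-/- animals, and they were set against APP/PS1 animals with both receptor genes, called AD. Both groups were 18 months old and both carry the amyloid-forming APP/PS1 transgenes, so no group without amyloid was measured. The labels name no Cre, no APP/PS1 line and no promoter for the transgenes. Each genotype had 2 libraries (ADAM 1 and ADAM 2, AD 1 and AD 2), and each library pooled 2 cortices, so that no value belongs to a single mouse. Cells were sorted as CD45+ and counted by unique molecular identifiers (UMIs) with 10x Genomics 3′ chemistry, which reads transcripts near their 3′ ends.

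Complement is a cascade of proteins that tags targets for uptake. C1q binds a target and, through its proteases, cleaves C4 and C2, which leads to cleavage of C3. The C3 fragment left on the target is read by complement receptor 3 (Itgam with Itgb2), while the small fragments C3a and C5a act through C3ar1 and C5ar1. Properdin stabilises the convertase of the alternative pathway. In the mouse brain, C1q comes chiefly from microglia and macrophages, and complement is best known there for marking synapses that microglia take up through receptor 3.

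The C1q genes lie side by side on the minus strand of chromosome 4, within 136880129 to 136898803 (GENCODE vM21 on GRCm38), a span of 18.7 kb. C3 and C4b lie on chromosome 17, C3ar1 on chromosome 6, C5ar1 and Itgam on chromosome 7 and Cfp on chromosome X, and all 9 are annotated as protein-coding. The upstream sequences of C1qb and Itgam are shown because each holds the core letters bound by PU.1, the transcription factor of the myeloid lineage, and because both genes were high in microglia. They are the 250 bases before the RefSeq start (GRCm38.p6), written along the gene's own strand, with the capitals marking GAGGAA or its complement. The C1qb window is chr4:136886201-136886450 on the minus strand, and the Itgam window is chr7:128062390-128062639 on the plus strand.
C1qb: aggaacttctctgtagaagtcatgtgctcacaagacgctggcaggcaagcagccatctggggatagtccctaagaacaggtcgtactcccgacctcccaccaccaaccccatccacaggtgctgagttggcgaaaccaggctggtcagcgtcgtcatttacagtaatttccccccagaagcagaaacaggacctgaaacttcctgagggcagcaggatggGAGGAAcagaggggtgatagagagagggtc
Itgam: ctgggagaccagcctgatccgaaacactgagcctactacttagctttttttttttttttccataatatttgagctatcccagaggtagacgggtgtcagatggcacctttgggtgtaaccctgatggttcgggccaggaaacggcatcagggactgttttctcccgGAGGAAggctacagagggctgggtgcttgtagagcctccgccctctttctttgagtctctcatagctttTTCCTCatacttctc
Windows were found in RefSeq for 7 of the 9 members. GAGGAA, searched on both strands, stood in 3 of the 7 (C1qb, C1qc and Itgam), against 23.3% of 32851 promoter windows of the same length. The NF-kB motif, also searched on both strands, stood in 1 of the 7 (C3ar1), against 1.41% of windows. The C/EBP letters TTGCGCAA, the STAT letters TTCNNNGAA and the IRF motif, on both strands, stood in 0 of the 7, against 0.164%, 7.02% and 2.98% of windows. None of the matches overlapped another in the same window. A match describes the letters and is no evidence of binding.

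Of the 15451 cells, 14628 carried 1 of the authors' 9 classes, and 9077 of the microglia carried 1 of 7 numbered states. Microglia with a state numbered 2317 and 2060 in ADAM 1 and ADAM 2, against 1600 and 3100 in AD 1 and AD 2, with median depths of 5472 and 5698.5 UMIs in ADAM against 4719.5 and 6170 in AD. Libraries shared 24 of 15427 distinct cell barcodes. Sums of 8 microglial markers in microglia (P2ry12, Tmem119 and others) were 13366 to 16958 CPM, the usual scaling of a gene's UMIs by the total of the cells summed, and 5 T cell markers summed to 4837 to 5740 CPM in T and NK cells. Of the deleted genes, Axl stood at 5.37 and 7.54 CPM in ADAM microglia, against 103 and 65.1 CPM in AD microglia after TMM scaling. Mertk stood at 246 and 286 CPM in ADAM microglia, against 273 and 287 CPM in AD microglia, which overlapped (log2 fold -0.075, SE 0.13), so its counts do not show the deletion. Which part of Mertk the allele lacks was not given in what was read, and 3′ tags outside that part check nothing. ADAM 2 stood apart. Its microglia held 919 CPM of 9 neutrophil markers, against 184 CPM in ADAM 1 and 183 and 204 CPM in the AD libraries. Haemoglobin genes stood at 4498 CPM there, against at most 0.612 CPM in any other library, and nearly all of it lay in state 2: without that state ADAM 2 microglia held 20.6 CPM. In state 2, 7 macrophage markers summed to 73.3 and 4055 CPM in ADAM 1 and ADAM 2, against 31.2 and 68.4 CPM in AD. AD 1 microglia held 693 CPM of 4 choroid plexus markers, against 1.24 CPM in AD 2 and 0.748 and 69.6 CPM in ADAM. Without state 2 they held 3.54 CPM. Since neutrophils express C3, C5ar1, Cfp and Itgam, results are given with and without ADAM 2 where it decides them. The labels do not say whether any library was handled in a separate batch. Libraries are the replicates, and p-values measure the spread between pools of cortices. Fewer cells of a type and less RNA per cell cannot be told apart in sums of UMIs.

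C1q was counted in most microglial cells. At a matched depth of 2000 UMIs per cell, all 3 C1q chains were seen together in 99.6% and 98.1% of microglia in ADAM 1 and ADAM 2, against 98.3% and 99.7% in AD 1 and AD 2. Cells under that depth were left out, 247 and 258 microglia in ADAM and 164 and 186 in AD, and of state 2 this kept only 15 and 33 cells in ADAM and 8 and 18 in AD. Over all microglia at their full depth the shares were 99.1% and 97.5% in ADAM, against 98.2% and 99.1% in AD. In state 2 at full depth they were 91.9% and 81.6% in ADAM, against 80.8% and 85.0% in AD. Levels are CPM of the summed UMIs, given as mean ± SD over the 4 libraries. The classes and states were made by the authors from these cells, so differences between them are described and not tested. C1qa, the A chain, averaged 10785 ± 539 CPM in state 0 and 9621 ± 1051 CPM in state 5. It averaged 6669 ± 1511 CPM in macrophages and 361 ± 111 CPM in monocytes, and the library ranges of macrophages and monocytes lay apart. C1qb, the B chain, was highest in state 3 (10069 ± 693 CPM) and state 0 (9745 ± 456 CPM), whose ranges overlapped, and lower in state 5 (7194 ± 809 CPM). C1qc, the C chain, averaged 7778 ± 296 CPM in state 0, above every library of state 3 (6732 ± 395 CPM) and of state 5 (6348 ± 723 CPM). The B chain differed more than the A chain between states 0 and 5. C1qb UMIs per C1qa UMI were 0.886 to 0.916 in state 0, against 0.723 to 0.793 in state 5, with no overlap over the 4 libraries. In state 6, a small state with 9 to 47 cells per library, C1qc UMIs per C1qa UMI were 0.367 to 0.502, below the 0.639 to 0.679 of state 5.

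**Figure D1:**
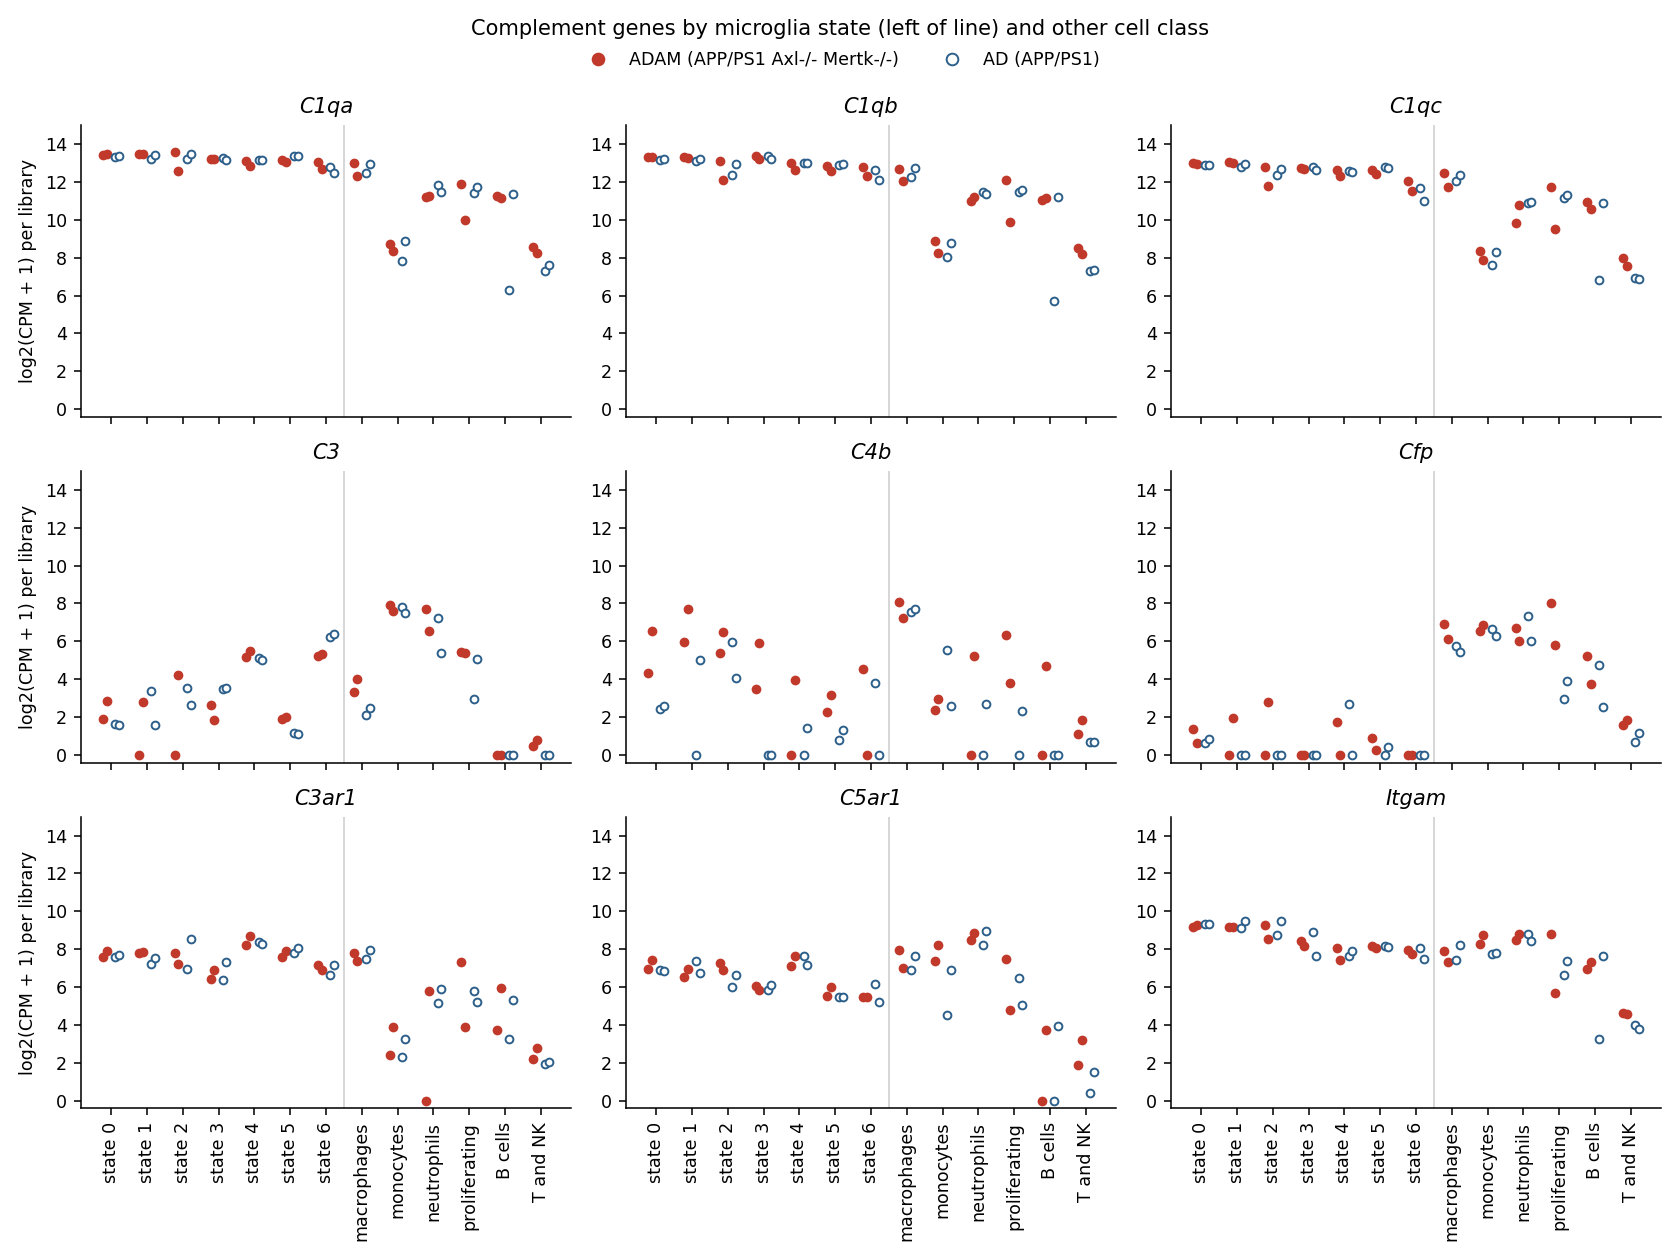
Level of each complement gene, as log2(CPM + 1), in each microglia state (left of the grey line) and other class, 1 point per library, ADAM filled and AD open. C1q points sit near the top in all microglia states and macrophages and fall in monocytes and T and NK cells, while C3 and Cfp points are high in monocytes, where C3 averaged 209 CPM and Cfp 95.5 CPM.

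The components and the regulator had other sources. C3, the central component, was highest in monocytes at 209 ± 24.5 CPM, above the range of every other class or state with at least 20 cells per library. State 4 followed with 35.8 ± 5.75 CPM, and states 0 and 5 held 3.25 ± 1.95 and 2.06 ± 0.997 CPM. Neutrophils, of which ADAM 1 and ADAM 2 had 11 and 580 and AD 1 and AD 2 had 30 and 136, held 206 and 91.4 CPM of C3 in ADAM, against 151 and 40.4 CPM in AD. Cfp averaged 95.5 ± 16.6 CPM in monocytes and 70.6 ± 33.9 CPM in macrophages, ranges that overlapped, and at most 1.22 CPM in the microglia of any library. C4b, the mouse C4 cleaved by the C1 complex, averaged 203 ± 50.9 CPM in macrophages, with no overlap with any microglia state tested. Its values are uncertain, because the near-identical C4a lies 65.2 kb away and reads can be shared between the copies, and C4a was not analysed here. The class called oligodendrocytes, with 3 to 8 cells per library, held 954.8 and 699 CPM of C4b in ADAM and 1403 and 425 CPM in AD.

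Receptor levels lay apart between some myeloid classes and states and overlapped between others. C3ar1, the C3a receptor, had its highest mean in state 4 at 338 ± 57.5 CPM, and its next level, 230 ± 31.3 CPM in state 5, lay below every state 4 library. State 2 (216 ± 110 CPM) ranged from 125 to 368 CPM and overlapped state 4, which ranged from 295 to 422 CPM. State 5, state 0 (208 ± 25.4 CPM) and macrophages (205 ± 38.7 CPM) overlapped, and monocytes held 7.66 ± 4.67 CPM. C5ar1, the C5a receptor, averaged 173 ± 61.7 CPM in macrophages, 170 ± 35.6 CPM in state 4 and 131 ± 25.4 CPM in state 0, all overlapping, and 48.8 ± 9.16 CPM in state 5, below every state 0 library. Neutrophils held 361 and 459 CPM of C5ar1 in ADAM and 301 and 496 CPM in AD. Itgam averaged 619 ± 25.8 CPM in state 0 and 277 ± 11.7 CPM in state 5, with no overlap between the states in the 4 libraries.

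Over 49 sums of a class or state in a library, the members fell into groups of like pattern. These correlations, of log2(CPM + 1), are descriptions, since the sums share libraries and cells. C1qa followed C1qb (r = 0.995) and C1qc (0.993), and C1qb followed C1qc (0.991). C3ar1 was closest to C1qc (0.949), C1qa (0.939) and the lysosomal protease Lgmn (0.930). Itgam was closest to Csf1r, a growth factor receptor of microglia and macrophages (0.940), Lrp1 (0.930) and Fcgr3 (0.926), and C5ar1 to Cd300a (0.878), Tlr13 (0.867) and Csf3r (0.858). For Cfp the nearest genes were Anxa1 (0.873), Plbd1 (0.865) and Clec12a (0.860), and for C3 they were Gpx1 (0.805), Prdx5 (0.791) and Msrb1 (0.776). C4b had no close partner: Ccl7, Ccl24 and Ccl8, chemokines, reached 0.676, 0.675 and 0.671. Cfp ran against the C1q chains (r = -0.46 with C1qa).

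**Figure D2:**
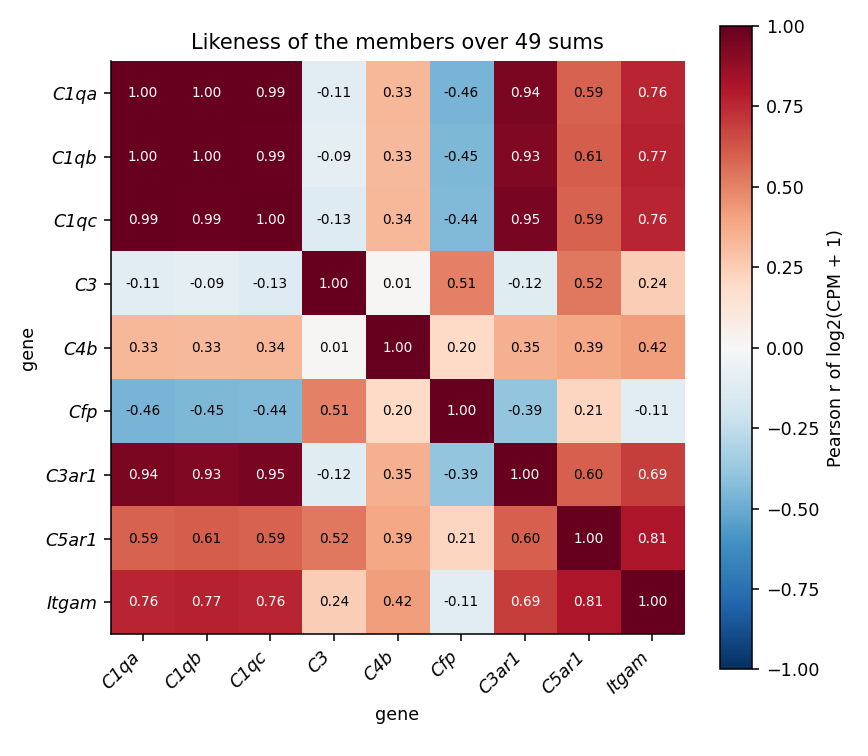
Pearson r of log2(CPM + 1) between each pair of members over 49 sums of a class or state in a library, with the value printed in each cell. The C1q chains and C3ar1 form a block, with the lowest value 0.93 between C3ar1 and C1qb, and Cfp is below 0 with each C1q chain.

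The genotypes were then compared, which asks whether loss of Axl and Mertk in amyloid-bearing mice goes with other complement transcripts. In 10 cell sets (microglia together, 5 of their states, macrophages, monocytes, proliferating cells, and T and NK cells), 72 of the 90 possible member tests passed the filter on low counts. Of these, 3 were called at an edgeR adjusted p under 0.05, against 0.122% of the 73151 tests of all genes in the same sets. The 3 were the C1q chains in T and NK cells. At an unadjusted p under 0.05 stood 13 of the 72, against 4.77% of all tests. The microglia sum and its states share cells, so these tests are not independent. DESeq2 called 4 and limma-voom 3.

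In microglia as a whole, 0 of 8 tested members had an unadjusted p under 0.05, against 2.35% of all genes. No member was called by edgeR, while 0.0419% of all genes were. DESeq2 and limma-voom called 0 as well. The libraries of the 2 genotypes overlapped for each C1q chain. C1qa stood at 10394 and 9615 CPM in ADAM 1 and ADAM 2, against 10123 and 10463 CPM in AD 1 and AD 2, with overlapping libraries and a log2 fold of 0.014 (with SE 0.13 and an edgeR adjusted p = 0.9999). For C1qb and C1qc the log2 folds were 0.032 (SE 0.13) and 0.0073 (SE 0.13). C3ar1 held 191 and 233 CPM in ADAM and 200.5 and 227 CPM in AD, and Itgam 466 and 427 CPM in ADAM and 448 and 514 CPM in AD. Cfp did not pass the filter, with 18 and 7 UMIs in ADAM microglia and 3 and 13 UMIs in AD microglia. The genotypes did not overlap for 2 of the 8 tested members, C4b and C5ar1, both higher in ADAM, against 27.3% of all genes.

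C4b showed the widest gap. Microglia held 220 and 692 UMIs of C4b in ADAM 1 and ADAM 2, against 29 and 98 UMIs in AD 1 and AD 2. As levels these were 14.96 and 53.2 CPM in ADAM and 3.38 and 4.52 CPM in AD. Both ADAM libraries lay above both AD libraries, and ADAM 2 lay well above ADAM 1. The log2 fold was 3.13 (SE 0.96), with an unadjusted p of 0.0571 and an edgeR adjusted p of 0.9999, so C4b was not called. Without ADAM 2 the log2 fold was 1.91, and without ADAM 1 it was 3.78. In these fits the lone ADAM library is assumed to vary like the AD libraries, so no call is taken from them. Without AD 1 or AD 2 C4b was not called.

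The share of cells with C4b followed the same order. At 2000 UMIs per cell, a C4b UMI was seen in 2.27% (95% interval 1.67 to 3.01) and 6.83% (5.70 to 8.09) of ADAM 1 and ADAM 2 microglia, against 0.487% (0.196 to 1.002) and 0.824% (0.528 to 1.22) in AD 1 and AD 2. Unthinned shares were 5.35% and 15.1% in ADAM and 1.5% and 2.26% in AD. The thinned share in T and NK cells, not known to make C4b, was 0.165% and 0.456% in ADAM and 0.116% and 0.132% in AD. Intervals are exact binomial and cover counting error only. With 2 against 2 libraries the smallest two-sided p of an exact permutation test is 0.33. The transcripts were spread over cells: 124 and 312 microglia had a UMI in ADAM 1 and ADAM 2, and the 10 richest cells held 28.6% and 12.6% of all C4b UMIs there.

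By state, both ADAM libraries held more C4b than both AD libraries in states 0 and 5. State 0 gave most of the counts, with 18.8 and 91.5 CPM in ADAM against 4.29 and 5.02 CPM in AD, giving 3.55 on the log2 scale (with SE 1.37 and an edgeR adjusted p = 0.998). Without ADAM 1 this was 4.33 and without ADAM 2 it was 2.01. State 0 held 70.5% and 75.3% of microglial C4b UMIs in ADAM 1 and ADAM 2 but 53.7% and 39.9% of the cells. State 5 was low, with 3.85 and 7.88 CPM in ADAM against 0.758 and 1.46 CPM in AD, giving 2.32 on the log2 scale (with SE 0.48 and an edgeR adjusted p = 0.0999). The outcome in state 5 depended on the settings: C4b passed without a filter on low counts (edgeR adjusted p = 7.5e-05). With a library left out in turn, it passed in some fits and not in others, with log2 folds from 1.69 to 2.92. State 1, not tested with 19 cells in AD 1, held 62.0 and 207 CPM in ADAM, against 0 and 31.6 CPM in AD, where 3 UMIs would be 27.7 CPM in AD 1. State 3 held 4 and 23 UMIs in ADAM and 0 in both AD libraries, where 3 UMIs would be 15.3 and 7.92 CPM. The 4 UMIs of ADAM 1 there were 10.3 CPM, so ADAM 1 was not shown to lie above AD 1 in state 3. State 2 was tested and the genotypes overlapped. After TMM scaling it held 46.4 and 125 CPM in ADAM against 79.6 and 17.5 CPM in AD (log2 fold 1.15, SE 0.71). State 4 held 0 and 3 UMIs in ADAM against 0 and 1 in AD, and state 6 held 6 and 0 against 4 and 0, too few to compare. With the states weighted alike in every library, C4b stood at 16.3 and 64.5 CPM in ADAM and 7.46 and 4.98 CPM in AD. In macrophages, the class with the most C4b among those tested, the libraries overlapped at 268 and 147 CPM in ADAM against 186 and 212 CPM in AD (log2 fold 0.082, SE 0.31).

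**Figure D3:**
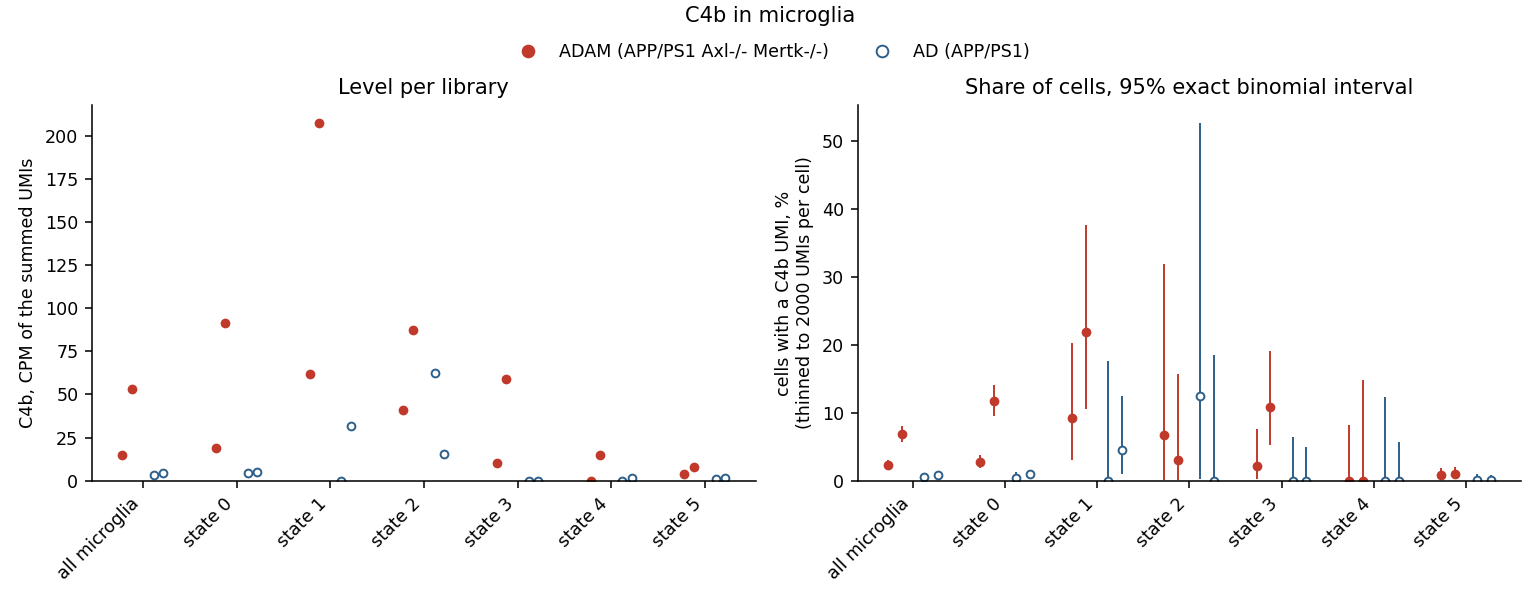
C4b in all microglia and in states 0 to 5, 1 point per library, ADAM filled and left of AD open; left, CPM of summed UMIs, right, share of cells with a UMI at 2000 UMIs per cell with exact 95% binomial intervals. In state 0 the ADAM points stand at 18.8 and 91.5 CPM above AD points at 4.29 and 5.02 CPM, and the 2 ADAM points are far apart.

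Markers of other cells that hold C4b were read beside it in state 0. The 7 macrophage markers summed to 0.565% and 0.747% of their macrophage level in ADAM 1 and ADAM 2, against 0.411% and 0.268% in AD 1 and AD 2. In CPM these sums were 21.5 and 17.9 in ADAM and 10.99 and 9.96 in AD, and 6 of the 7 markers were higher in ADAM without overlap. C4b there reached 6.99% and 62.3% of its macrophage level in ADAM, against 2.30% and 2.37% in AD. The 5 astrocyte markers summed to 189 and 202 CPM in ADAM and 163 and 190 CPM in AD, and the 6 oligodendrocyte markers to 89.7 and 84.0 CPM in ADAM and 91.4 and 92.1 CPM in AD. The 9 neutrophil markers summed to 197 and 834 CPM in ADAM and 218 and 197 CPM in AD, and neutrophils themselves held 0 and 36.1 CPM of C4b in ADAM and 0 and 5.39 CPM in AD. No marker of these 4 lists was at 0 in state 0. The part of other cells in the C4b gap was not tested beyond these values.

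Within states 0 and 5 the C1q chains differed between the genotypes in opposite directions, by small amounts that were not called. In state 0, C1qa stood at 11150.3 and 11305 CPM in ADAM, against 10149.9 and 10534 CPM in AD, and both ADAM libraries lay above both AD libraries. After TMM scaling its log2 fold was 0.20 (SE 0.17), and those of C1qb and C1qc were 0.19 (SE 0.17) and 0.18 (SE 0.17), none called (edgeR adjusted p = 0.998 for each). In state 5, C1qa stood at 9197 and 8332 CPM in ADAM, against 10446 and 10509.8 CPM in AD, and both ADAM libraries lay below both AD libraries. Its log2 fold was -0.26 (SE 0.12, unadjusted p = 0.0468, edgeR adjusted p = 0.913), and those of C1qb and C1qc were -0.22 (SE 0.13) and -0.25 (SE 0.12). C1qa and C1qb were also lower in both ADAM libraries of state 4, with log2 folds of -0.23 (SE 0.19) and -0.22 (SE 0.20).

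In state 0, where 0.101% of all genes were called and no member was, 6 of 8 tested members did not overlap between the genotypes, all higher in ADAM: the C1q chains, C3, C4b and C5ar1. Of all genes there, 32.5% did not overlap and 16.4% were higher without overlap. In state 5, where 0.153% of all genes were called, 6 of 8 did not overlap, 3 higher (C3, C4b and C5ar1) and 3 lower (the C1q chains), against 33.6% of all genes. In state 4 the count was 3 of 7, against 30.4%. The C1q chains vary together across sums, so they do not count as separate cases, and no test of these counts was made. At an unadjusted p under 0.05 stood 2 of 8 members in state 0, against 4.22% of all genes, and 4 of 8 in state 5, against 5.3%. DESeq2 and limma-voom called 0 members in either state. Over all 10 sets, 28 of the 72 member tests did not overlap, near the 32.6% of all tests.

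The difference between the states was tested within libraries, as state 5 minus state 0 in ADAM minus the same in AD. For C1qa it was -0.48 on the log2 scale (SE 0.22, unadjusted p = 0.0320, edgeR adjusted p = 0.906), for C1qb -0.43 (SE 0.22), for C1qc -0.44 (SE 0.22) and for C4b -1.29 (SE 0.66). C3ar1 had -0.40 (SE 0.19, edgeR adjusted p = 0.929), from 190 and 243 CPM in ADAM against 188 and 208 CPM in AD in state 0, and 191 and 239 CPM in ADAM against 223 and 266 CPM in AD in state 5. None of the 8 members tested was called, while 0.105% of all genes were, and 3 members (C1qa, C1qc and C3ar1) had an unadjusted p under 0.05. The share of all genes under that unadjusted p is not given for this test. With states 0 and 5 fitted alone, C3ar1 was called (-0.40, edgeR adjusted p = 0.0323). The share of all genes called in that fit is not given, so the call is not shown to be particular to C3ar1.

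**Figure D4:**
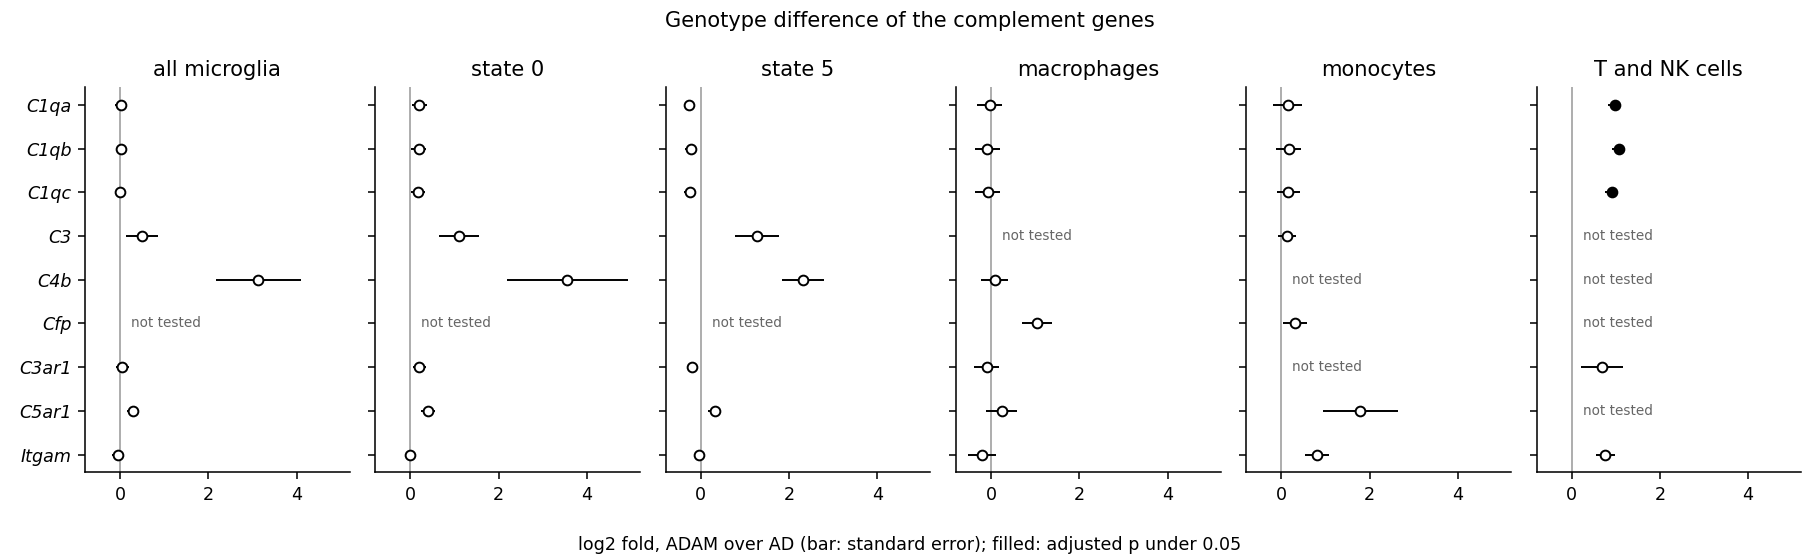
Log2 fold of ADAM over AD with its standard error for each member in 6 of the tested cell sets, filled where the edgeR adjusted p is under 0.05. C4b has the largest folds in microglia (3.13 in all, 3.55 in state 0) with the widest errors, and the filled points are the C1q chains in T and NK cells.

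C5ar1, the C5a receptor, lay above the AD level in both ADAM libraries of microglia and was not called. It stood at 94.7 and 114 CPM in ADAM and 82.4 and 94.4 CPM in AD, a log2 fold of 0.29 (SE 0.14, unadjusted p = 0.0648, edgeR adjusted p = 0.9999). In state 0 it held 122 and 169 CPM in ADAM against 118 and 116 CPM in AD (log2 fold 0.40, SE 0.16, edgeR adjusted p = 0.998), and in state 5, 45.8 and 62.5 CPM in ADAM against 43.7 and 43.3 CPM in AD (0.32, SE 0.15, edgeR adjusted p = 0.936). ADAM 2 was the high library in each. Without it the log2 folds were 0.12 and 0.069, and without ADAM 1 they were 0.63 and 0.52. The neutrophil markers, which are high in ADAM 2, summed in state 5 to 162 and 820 CPM in ADAM and 146 and 141 CPM in AD, and their part in the C5ar1 values was not tested. C5ar1 lies on chromosome 7 at 16246743 to 16259540, 9.50 Mb from Axl, so strain sequence linked to the Axl deletion and the deletion itself cannot be told apart for it.

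C3 was scarce in microglia. It held 62 and 88 UMIs in ADAM and 46 and 67 UMIs in AD over all microglia. In state 0 these were 2.66 and 6.15 CPM in ADAM against 2.14 and 2.04 CPM in AD (log2 fold 1.10, SE 0.44, edgeR adjusted p = 0.998), and in state 5, 2.78 and 3.04 CPM in ADAM against 1.26 and 1.13 CPM in AD (1.28, SE 0.49, edgeR adjusted p = 0.754). Without ADAM 2 the state 0 fold was 0.41 and the state 5 fold 1.21. Over all microglia the log2 fold was 0.49 (SE 0.37), and it was 0.082 without ADAM 2 and 0.068 without AD 2. State 5 rests on 13 and 17 UMIs in ADAM and 5 and 7 UMIs in AD. Itgam did not differ beyond the spread of the libraries in either state, with log2 folds of -0.0031 (SE 0.13) and -0.046 (SE 0.11).

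Among the other myeloid cells, no member was called by edgeR in macrophages, monocytes or proliferating cells, with 1 member each at an unadjusted p under 0.05. Of all genes in these 3 classes, in that order, 2.21%, 8.51% and 8.73% stood under that p, and 0.0154%, 0.155% and 0.0842% were called. limma-voom called none, and DESeq2 called Cfp in proliferating cells. Cfp stood in ADAM macrophages at 119 and 68.7 CPM against 52.2 and 42.6 CPM in AD, without overlap (log2 fold 1.05, SE 0.34, unadjusted p = 0.0101, edgeR adjusted p = 0.9995). In proliferating cells it held 202 and 51 UMIs in ADAM against 2 and 7 UMIs in AD, or 3.92 on the log2 scale (with SE 0.87 and an edgeR adjusted p = 0.194, DESeq2 adjusted p = 0.00143). That class mixes cell types: the 7 macrophage markers summed to 373 and 191 CPM in ADAM against 3.43 and 88.2 CPM in AD, and the 5 monocyte markers to 383 and 4245 CPM in ADAM against 1122 and 694 CPM in AD. The neutrophil markers there summed to 158 and 18511 CPM in ADAM against 48.1 and 213 CPM in AD. The log2 fold of Cfp was 2.41 without ADAM 1 and 4.63 without ADAM 2. It was 3.60 without AD 1 and 4.58 without AD 2. Without ADAM 1 the log2 folds of C1qa, C1qb, C1qc and Itgam in proliferating cells were -1.43, -1.46, -1.58 and -1.24. Without ADAM 2 those of C3ar1, C5ar1 and Itgam were 2.00, 1.79 and 1.86. C1qa stood there at 3790 and 1015 CPM in ADAM against 2749 and 3381 CPM in AD.

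In monocytes, C5ar1 held 167 and 298 CPM in ADAM against 21.8 and 118 CPM in AD (log2 fold 1.79, SE 0.84, edgeR adjusted p = 0.696), and Itgam 305 and 435 CPM in ADAM against 218 and 225 CPM in AD (0.81, SE 0.27, edgeR adjusted p = 0.421). Neither library range overlapped between the genotypes. Itgam was called without a filter on low counts (0.86, edgeR adjusted p = 0.0193). Its log2 fold without ADAM 1 was 1.13. Without ADAM 2 neither gene was called. The 9 neutrophil markers in monocytes summed to 4218 and 70438 CPM in ADAM against 119 and 2099 CPM in AD, the same order of libraries as for C5ar1, and their part in these values was not tested. C3 in monocytes overlapped, at 237 and 195 CPM in ADAM against 220 and 183 CPM in AD.

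The calls lay in T and NK cells, which are not known to make C1q. There 0.241% of all genes were called and 0.189% were called higher in ADAM, and 3 of the 5 members tested were called higher. C1qa stood at 378 and 301 CPM in ADAM, against 155 and 194 CPM in AD (log2 fold 0.97, SE 0.15, edgeR adjusted p = 0.0131). C1qb stood at 367 and 295 CPM in ADAM, against 156 and 163 CPM in AD (1.06, SE 0.14, edgeR adjusted p = 0.00544), and C1qc at 251 and 189 CPM in ADAM, against 121 and 115 CPM in AD (0.91, SE 0.15, edgeR adjusted p = 0.02002). All 5 tested members lay higher without overlap, against 16.3% of all genes higher without overlap and 32.8% without overlap in either direction. The C1q chains vary together, so they do not count as separate cases. Without AD 1 none of the 3 was called (edgeR adjusted p = 0.118 to 0.270), without AD 2 C1qc was not (0.180), and without ADAM 1 C1qb alone was (0.00704).

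These counts were a few percent of the microglial level. C1qa in T and NK cells was 3.63% and 3.14% of its microglial level in ADAM, against 1.53% and 1.85% in AD. Most of the 8 microglial markers were higher in ADAM too: their median was 3.17% and 3.23% of the microglial level in ADAM, against 2.13% and 2.07% in AD. Cx3cr1 overlapped, at 50.8 and 52.8 CPM in ADAM against 58.4 and 52.3 CPM in AD. Siglech overlapped as well, at 24.0 and 17.1 CPM in ADAM against 18.8 and 19.6 CPM in AD. Their sums were 548 and 411 CPM in ADAM against 343 and 354 CPM in AD, 6 of 8 were higher as a share of CPM without overlap, and none was at 0. Thinned to 2000 UMIs, 42.3% and 34.7% of T and NK cells held a C1qa UMI in ADAM, against 20.4% and 30.6% in AD, without overlap. For the marker Csf1r the shares were 11.9% and 8.97% in ADAM, against 8.36% and 5.67% in AD, without overlap, and for Cx3cr1 they were 10.05% and 8.51% in ADAM, against 9.18% and 8.05% in AD, which overlapped. C1qa UMIs reached 38 and 35 in single T and NK cells of ADAM and 40 and 13 in those of AD. Cells that the authors marked as microglia and T cell doublets were left out, and this removal was uneven. They numbered 0 and 4 in ADAM 1 and ADAM 2, against 209 and 3 in AD 1 and AD 2. In AD 1 they held 1058 C1qa UMIs, against 500 in its T and NK cells. The part of this removal in the calls was not tested. Whether the C1q counts come from T and NK cells themselves, from free RNA or from microglia in the same droplets was not tested.

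**Figure D5:**
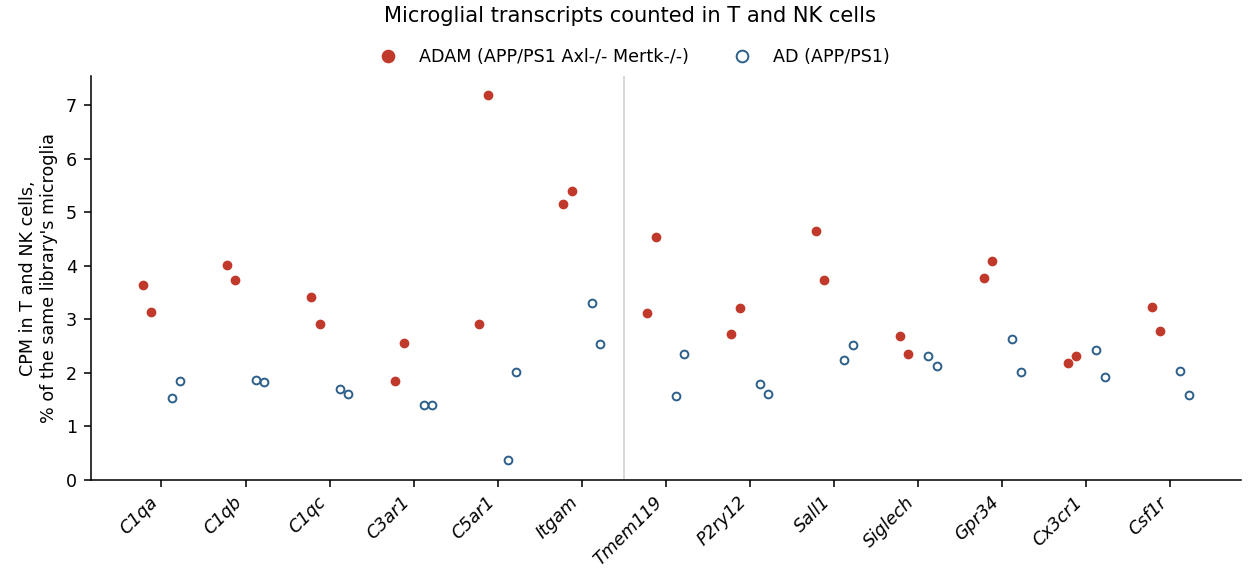
CPM in T and NK cells as a percent of the CPM in microglia of the same library, for the members tested or seen there (left of the line) and 7 of the 8 microglial markers, ADAM filled and left of AD open. C1qa lies at 3.63% and 3.14% in ADAM and 1.53% and 1.85% in AD, and the markers span 2.18% to 4.65% in ADAM and 1.56% to 2.63% in AD.

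C1q was also counted in neutrophils and B cells. C1qa stood at 2321 and 2401 CPM in ADAM neutrophils and 3594 and 2854 CPM in AD neutrophils, where microglial markers had a median of 20.4% and 31.5% of their microglial level in ADAM and 45.8% and 32.8% in AD. In B cells it stood at 2431 and 2308 CPM in ADAM and 76.5 and 2656 CPM in AD. AD 1 was the low library, with markers at a median of 0.777% of the microglial level, against 16.7% and 27.5% in ADAM and 36.7% in AD 2. In B cells the 10 richest cells held 99.5% of C1qa UMIs in both ADAM libraries and 96.9% in AD 2, with up to 189 UMIs in 1 cell of AD 2, while AD 1 had 9 UMIs in all. In T and NK cells the 10 richest cells held 22.3% and 23.2% in ADAM and 24.6% and 13.3% in AD.

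The other complement genes were read from a list of 48, of which 29 were found in the count table. In the 10 cell sets 103 tests of them passed the filter, and edgeR called 0, with 12 at an unadjusted p under 0.05, against 4.77% of all tests. DESeq2 and limma-voom called 0. Of the receptors and integrin partners, all 9 were found: Calr, which binds C1q, held 557 and 626 CPM in ADAM and 612 and 610 CPM in AD, Lrp1 313 and 347 CPM in ADAM and 316 and 360 CPM in AD, and Itgb2, the beta chain of receptor 3, 254 and 227 CPM in ADAM and 255 and 236 CPM in AD. Itgax, the alpha chain of complement receptor 4, held 547 and 530 CPM in ADAM state 5 and 728 and 588 CPM in AD state 5 (log2 fold -0.30, SE 0.12, edgeR adjusted p = 0.854). Of the lectin pathway, 6 of 9 were found, and the protease Masp1 stood in state 5 at 8.98 and 10.4 CPM in ADAM and 17.7 and 16.5 CPM in AD (-0.81, SE 0.19, edgeR adjusted p = 0.189). Of the membrane regulators, 5 of 9 were found, and Cd59a, an inhibitor of the membrane attack complex, held 17 and 13 UMIs in ADAM state 5 and 2 and 0 UMIs in AD state 5 (edgeR adjusted p = 0.164). The C1 proteases, C2, the alternative pathway enzymes and the terminal components were represented by C1ra, C2, Cfb, C6 and C8g. C1ra and C2 held at most 1.29 and 1.496 CPM in the microglia of any library.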

How the data were processed

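Per the labels' protocols, CD45+ cells were sorted from enzyme-digested, Percoll-cleared cortices and sequenced with 10x Genomics 3′ v3.1 chemistry. The authors deposited raw UMI counts per gene and cell, not normalized, and a table with library, class, microglia state and doublet marks. That table also gives each cell's percent of mitochondrial UMIs, computed by the authors, which was only checked against the counts. Software is listed in the submitters' processing notes as Seurat 3.2.1.9002 and Cell Ranger 3.1.0, with the build mm10; their cell filters were not stated in what was read here. The 823 cells marked as doublets carry no class and the 216 marked as microglia and T cell doublets carry no state, and both were left out of the tests. Of the 216, 0 came from ADAM 1 and 4 from ADAM 2, against 209 from AD 1 and 3 from AD 2.

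Counts were summed per library and cell set. Sets with at least 20 cells per library were tested with edgeR 4.0.16 (R 4.3.3): quasi-likelihood test, TMM scaling, filter with a minimum count of 10, genotype as the only term, Benjamini-Hochberg adjustment over all genes of a set, threshold 0.05. Levels are CPM without TMM scaling except where stated. The state by genotype test had library as a term. Shares of cells used cells thinned to 2000 UMIs, without the shallower ones. DESeq2 1.42.0, limma-voom 3.58.1, no TMM, no filter, a replicate block, states left out and each library left out were alternatives. The tests were checked on simulated counts. Deviations of same-numbered libraries correlated at -0.336 to 0.118 over the 10 sets (-0.210 in microglia, above 0 in 6), and the labels give the numbers no shared origin, so they were not taken as pairs.

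The members, lists and motifs were chosen with earlier results of these data known. Named genes were the members, the 3 genes most like each (of 8043 with a mean of at least 10 CPM) and up to 4 pathway genes per group by microglial level, with Itgax, Masp1 and Cd59a chosen after their values were seen. Some genes that the rule would name are not reported here. Intervals cover counting error only.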

Additional observations from a re-analysis of the deposited data

Results flagged for a closer look

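The C1q chains had folds of opposite sign in different cell sets, with no overlap of the libraries of the genotypes in each set named here. C1qa had log2 folds of 0.20 in state 0 and 0.97 in T and NK cells, and of -0.23 in state 4 and -0.26 in state 5. C1qb had 0.19 and 1.06 in state 0 and in T and NK cells, and -0.22 in both state 4 and state 5. C1qc had 0.18 and 0.91 in state 0 and in T and NK cells, and -0.25 in state 5. Between states 0 and 5 the difference was tested and not called, while the difference from T and NK cells was not tested.

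Cells outside the tested sets were listed here only where both ADAM libraries of a member lay above both AD libraries. Lower cases were therefore not listed. In neutrophils, for example, each C1q chain lay lower in both ADAM libraries, with C1qa at 2321 and 2401 CPM against 3594 and 2854 CPM in AD. The share of all genes that lay higher in the listed cells was not counted. In state 1, not tested with 19 cells in AD 1, C1qa stood at 11528 and 11483 CPM in ADAM 1 and ADAM 2, against 9385 and 10812 CPM in AD 1 and AD 2. C1qb stood there at 10306 and 9662 CPM in ADAM against 8942 and 9535 CPM in AD, and C1qc at 8359 and 8235 CPM in ADAM against 7126 and 7894 CPM in AD. C3ar1 stood at 219 and 231 CPM in ADAM state 1 against 147 and 182 CPM in AD state 1, and C4b at 62.0 and 207 CPM in ADAM against 0 and 31.6 CPM in AD.

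The 823 cells that the authors marked as doublets held 38.0 and 67.1 CPM of C4b in ADAM, against 5.68 and 5.79 CPM in AD. Cfp stood there at 35.5 and 20.8 CPM in ADAM against 1.26 and 3.86 CPM in AD, and C3 at 30.4 and 32.9 CPM in ADAM against 19.5 and 9.65 CPM in AD. C5ar1 stood at 113 and 162 CPM in ADAM doublets against 64.96 and 81.4 CPM in AD doublets, and Itgam at 477 and 457 CPM in ADAM against 426 and 444 CPM in AD. Macrophage markers summed to 366 and 147 CPM in these ADAM cells against 49.8 and 95.7 CPM in the AD cells, and their part in the values was not tested.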

How the results depend on the processing

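Of 304 recomputed member folds and state differences, 271 kept their direction and their side of the threshold, 10 passed it newly and 23 changed sign. Without TMM scaling the microglial log2 folds of C1qa, C1qb, C1qc and C3ar1 were -0.038, -0.020, -0.044 and -0.0077, and the state differences of C5ar1 and Itgam were 0.0059 and 0.046. With limma-voom the state 0 fold of Itgam was 0.0018.

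Without a filter on low counts, edgeR called 1 pathway gene in state 0, 1 member in state 3, 1 member and 2 pathway genes in state 5, 2 members and 1 pathway gene in monocytes, 2 members and 3 pathway genes in proliferating cells, and 4 members (3 with the filter) and 1 pathway gene in T and NK cells. Without the filter the number of all genes called also moved, in 9 of the 10 sets. The added calls are therefore not shown to be particular to complement genes. DESeq2 called 1 member in proliferating cells, and its number of all genes called moved in 7 of the 10 sets. With states 0 and 5 alone, 1 member was called for the state difference, and the share of all genes called in that fit is not given. The cause was not tested.

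With the replicate block, 1 pathway gene was called in T and NK cells and no other count of members or pathway genes changed. The number of all genes called moved in 8 of the 10 sets. The shared numbers are not known to pair the libraries. With the numbers crossed, an alternative chosen after seeing the data, 1 member was called in proliferating cells, 4 members over all sets against 3. All genes called moved there in 6 of the 10 sets.

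Each library was also left out in turn, which leaves 1 library in a genotype. The calls of members and pathway genes changed in some sets, and the number of all genes called changed too. Calls added in these fits are therefore not shown to be particular to complement genes. Microglial folds ranged from -0.013 to 0.039 for C1qa, -0.049 to 0.11 for C1qb, -0.052 to 0.063 for C1qc, -0.13 to 0.21 for C3ar1 and -0.14 to 0.028 for Itgam. In state 0 they ranged from -0.0049 to 0.39 for C3ar1 and -0.066 to 0.055 for Itgam, and in state 5 from -0.10 to 0.0091 for Itgam. The state differences ranged from -0.31 to 0.79 for C3 and -0.16 to 0.077 for Itgam.

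ADAM minus AD shares of microglia moved with depth: C4b 3.89 percentage points at 2000 UMIs and 8.37 unthinned, C3 0.489 points against 0.965 unthinned and 0.0970 at 1000 UMIs, and C5ar1 3.55 points against 1.35 at 1000 UMIs. In microglia, C3 rests on at most 88 UMIs and Cfp on at most 18 UMIs in a library, so small differences in either were not detectable at this depth.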
